A study of Caenorhabditis elegans with 14 samples.

Results

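Divergent promoter pairs are neighbouring genes that lie back to back, the left one read leftward and the right one read rightward, so that their starts face each other across a shared upstream stretch of DNA. Pairs were taken from the WS190 gene coordinates of Caenorhabditis elegans on the 5 autosomes (I to V), where neither gene overlapped another and 300 to 1000 bp separated the 2 gene ends. The rule gave 980 pairs with 1960 member genes, out of 20308 neighbouring pairs and 20314 genes. Of all 3095 non-overlapping autosomal divergent pairs, 303 were closer and 1812 were farther apart. Chromosome V held 292 of the pairs, chromosome II 187, chromosome I 183, chromosome IV 176 and chromosome III 142. The median spacing was 609.5 bp, with 318 pairs at 300 to under 500 bp, 370 at 500 to under 750 bp and 292 at 750 to 1000 bp. The members were slightly shorter than genes at large, with a median length of 1641.5 bp against 1943 bp.

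In animals each promoter of such a pair usually assembles its own polymerase, although both can share regulatory DNA and open chromatin. RNA polymerase II is recruited to a start, may be held there, and then travels through the gene, so its density at the start and its density over the gene body describe different steps. Newly hatched C. elegans larvae without food stop development at the first larval stage (L1 arrest) and resume it once fed.

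The study measured polymerase II occupancy by chromatin immunoprecipitation and sequencing (ChIP-seq) in whole wild-type N2 larvae, with 3 antibodies called S2, 4H8 and 8WG16. Embryos were left without bacteria for 24 hr to give larvae at 12 hr of arrest, and the recovery libraries came from such larvae given E. coli HB101 for 1 hr. Each state had 4 libraries, 1 with S2, 2 with 4H8 and 1 with 8WG16. One further column, S2 at 6 hr of arrest after 18 hr without food, and 1 input column were used for levels only. All libraries came from the same strain and culture scheme, and the recovery groups differ from the 12 hr arrest groups by the food and the added 1 hr of culture. Whole larvae hold many tissues, so a higher density in more cells and a higher density per cell cannot be told apart.

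Densities were reads normalised to library size and to feature length (RPKM), either over the gene (gene density) or over a 200 bp window at the most upstream annotated start (start density). The windows of 2 partners lay at least 100 bp apart by this rule. A density carries no direction of transcription, so the start density of a partner means the density in its window. Which of the 2 genes that polymerase belonged to was not tested. The depth estimated from the deposited values was 1322000 to 5863000 reads per library, so a start window held a median of only 2 to 8 reads and a gene 26 to 105. In the shallowest library, 8WG16 recovery, 3 reads were worth 11.35 RPKM. Among the markers of 4 larval tissues, muscle genes had a median gene enrichment over input of 3.4 in arrest and 2.86 in recovery, with 3 of 4 at 2-fold in some library and none in all 8. Neuronal genes (1.1 and 0.858) and hypodermal genes (0.895 and 1.08) lay near input, and gut genes (0.494 and 0.598) had none of 4 at 2-fold in any library. Yolk genes of adults (0.282 and 0.492) and sperm genes (0.184 and 0.269) lay below input in the median. Changes are log2 differences of RPKM plus 5, recovery minus 12 hr arrest, tested over all genes with limma and adjusted by Benjamini-Hochberg, and a change was called at an adjusted p under 0.05. Genes with a mean of at least 10 RPKM over the 8 libraries were tested. Each change is averaged over the 3 antibodies, and whether it differed between antibodies was not tested.

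Polymerase enrichment at a start was mostly found on 1 side of a divergent pair, as it was in the other classes of neighbouring pairs. A start counted as enriched when the authors' start enrichment over input was at least 2-fold. In the 4 arrest libraries both starts were enriched in 0.51% (S2), 0.51% and 0.714% (4H8) and 1.84% (8WG16) of the 980 pairs, and exactly 1 start in 12.2%, 14.2%, 9.59% and 17.3%. In recovery both starts were enriched in 0.714% (S2), 1.53% and 0.816% (4H8) and 1.12% (8WG16), and exactly 1 start in 6.22%, 8.06%, 6.94% and 9.69%. Pairs with a single enriched start were fewer in recovery in each of the 4 arrest and recovery library pairs that shared a flow cell, while the ranges for both starts overlapped between the states. The mean share with both starts was 0.893% ± 0.637 (SD, n = 4) in arrest and 1.05% ± 0.367 (SD, n = 4) in recovery, a difference of 0.153 percentage points (exact two-sided permutation test over libraries, p = 0.743; the smallest p that 70 arrangements allow is 0.0286).

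**Figure D1:**
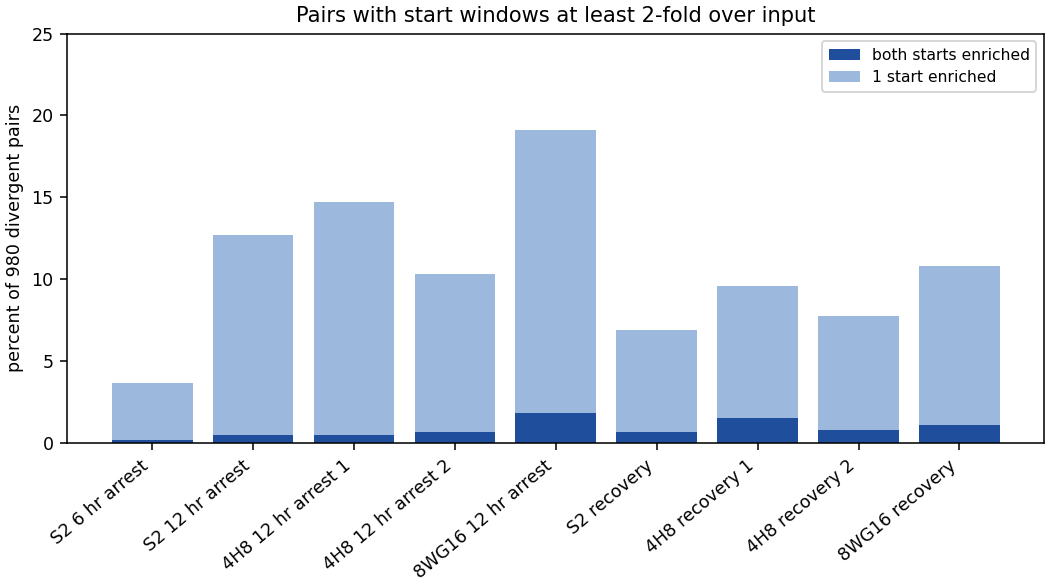
Percent of the 980 divergent pairs with both starts (dark) or 1 start (light) at least 2-fold over input, by library. The dark part lies between 0.204% and 1.84% in the 9 libraries, and the light part is 9.59% to 17.3% in the 12 hr arrest libraries and 6.22% to 9.69% in recovery.

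Given 1 enriched start, the partner's start was also enriched in 6.71% to 17.5% of cases in arrest and in 18.7% to 27.5% in recovery. Of all starts of divergent members, 5.51% to 10.5% were enriched in arrest and 3.83% to 5.97% in recovery, and of all genes 9.17% to 11.4% and 5.14% to 8.22%. Tandem neighbours at the same spacing, 2690 pairs that point the same way, gave 16.6% to 21.4% in arrest and 15.9% to 26.1% in recovery. Convergent neighbours gave 10.2% to 15.7% and 5.13% to 17.8%, and divergent pairs over 1000 and up to 3000 bp apart 12.0% to 21.7% and 12.5% to 24.5%, and the difference between the classes was not tested. The spacing is that between gene ends. At the same spacing the starts of tandem and convergent neighbours therefore lay farther apart, by 1 or both gene lengths. In the 12 hr arrest libraries exactly 1 start was enriched in 9.96% to 13.4% of tandem, 10.5% to 11.7% of convergent and 6.59% to 10.6% of wider divergent pairs. Both starts were enriched in 1.0% to 1.82%, 0.595% to 1.09% and 0.628% to 1.46% of them. The S2 library at 6 hr of arrest had fewer enriched starts than the one at 12 hr, with both partners enriched in 0.204% and 1 in 3.47% of the 980 divergent pairs.

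Partners resembled each other moderately in level, and the unselected input did so too. Pearson's r between left and right start densities, over 980 pairs within a library, was 0.22 to 0.38 across the 9 ChIP libraries and 0.28 in the input. For gene density r was 0.37 to 0.53, against 0.39 in the input. Tandem neighbours had r = 0.21 to 0.41 at starts (input 0.22), and convergent neighbours, 1009 pairs that point at each other, 0.13 to 0.25 (input 0.25). These are correlations across pairs of 1 library, which share its depth, and pairs are not independent replicates. Mean start r was 0.331 ± 0.0309 (SD, n = 4) in arrest and 0.295 ± 0.0639 (SD, n = 4) in recovery (exact two-sided permutation test, p = 0.371). Mean gene r was 0.472 ± 0.0561 (SD, n = 4) and 0.423 ± 0.0504 (SD, n = 4) (exact two-sided permutation test, p = 0.229). Gene r was lower after feeding on 4 of 4 flow cells, with differences of -0.0706 to -0.0289. These permutation tests exchanged libraries across flow cells and antibodies and did not use that pairing.

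**Figure D2:**
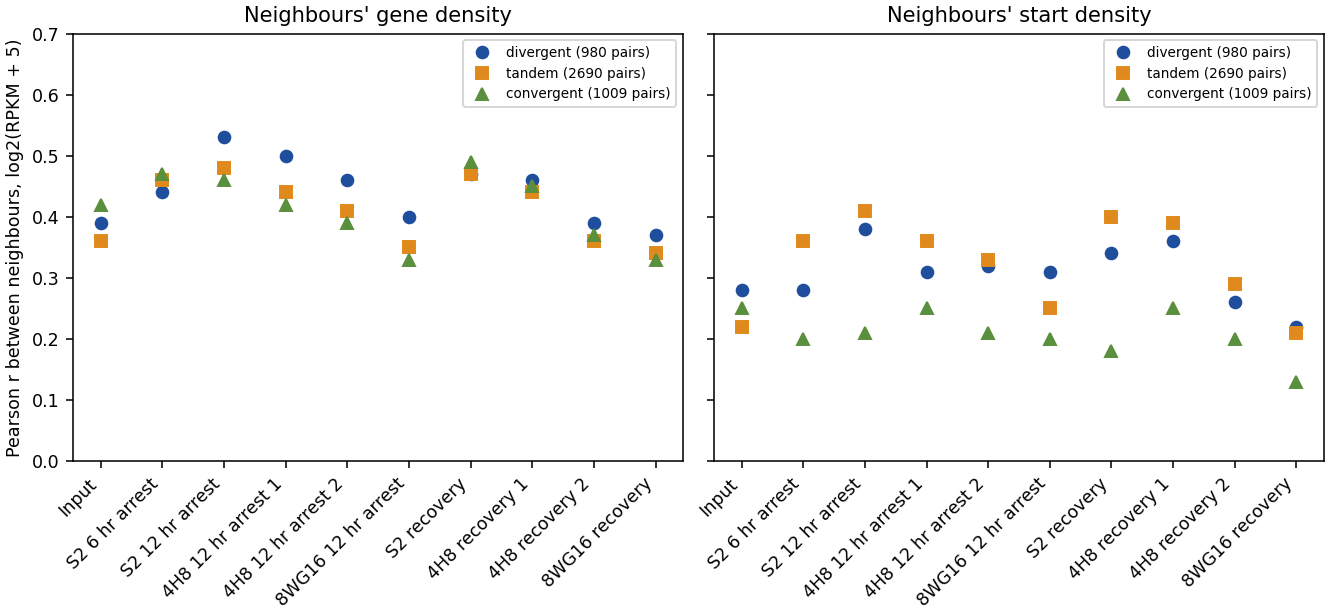
Pearson's r between the log2(RPKM + 5) values of neighbouring genes 300 to 1000 bp apart, by library, for gene density (left) and start density (right). Divergent pairs reach 0.53 for genes and 0.38 for starts, and the input, which has no immunoprecipitation, lies at 0.39 and 0.28.

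Within pairs that had a tested start, start densities of the partners were within 2-fold of each other in 47.2% of 411 pairs in arrest and 55.0% in recovery. For gene density the share within 2-fold moved the other way, from 64.5% to 58.7% of 487 pairs, and the share that differed by more than 4-fold was 6.98% in arrest and 12.5% in recovery.

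Pairs with strong polymerase at both starts in arrest show what a shared signal looked like. The 4 pairs with the highest density at their weaker start were drr-2 with set-16, F25H2.5 (ndk-1 in RefSeq) with F25H2.6 (cert-1), and 2 histone pairs. The translation factor gene drr-2 and the histone methyltransferase gene set-16 lie 341 bp apart on chromosome III (13642309 to 13643456 and 13643798 to 13656517). The drr-2 start density in arrest was 151 (S2), 237 and 156 (4H8) and 231 RPKM (8WG16), and in recovery 39.1, 131, 79.3 and 60.5 RPKM. At the set-16 start the values were 36.3, 92.9, 58.2 and 82.9 RPKM in arrest and 13.03, 36.7, 28.1 and 15.1 RPKM in recovery. Every recovery library was below every arrest library for drr-2, while for set-16 only 1 recovery value, 36.7 RPKM, exceeded the lowest arrest value. Both starts fell by like amounts, drr-2 with a log2 change of -1.36 (SE 0.25, limma adjusted p = 3.39e-05) and set-16 with -1.37 (SE 0.27, adjusted p = 6.65e-05). Their gene densities did not fall: set-16 rose by 0.35 (SE 0.11, limma adjusted p = 0.0358), and drr-2 had a log2 change of 0.25 (SE 0.1, adjusted p = 0.0854).

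The pair F25H2.5 and F25H2.6 on chromosome I, 452 bp apart, encodes a nucleoside diphosphate kinase and a ceramide transfer protein by the RefSeq names. F25H2.5 had start densities of 234, 466, 360 and 592 RPKM in arrest (S2, the 2 4H8 libraries, 8WG16) and 169, 268, 228 and 236 RPKM in recovery. F25H2.6 had 57.4, 44.6, 62.5 and 85.9 RPKM in arrest and 27.7, 37.8, 23.0 and 37.8 RPKM in recovery. Both starts fell, with log2 changes of -0.8 (SE 0.23, limma adjusted p = 0.00637) and -0.87 (SE 0.26, adjusted p = 0.00744). Over the genes the partners parted: F25H2.5 rose by 0.89 (SE 0.16, limma adjusted p = 0.00342), F25H2.6 had a change of -0.1 (adjusted p = 0.486), and the difference between them was called (0.99, SE 0.16, adjusted p = 0.00325, F25H2.5 above F25H2.6).

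More members rose than fell in gene density after feeding under the deposited scaling, and at the starts more fell than rose. In gene density 710 of the 1960 members were tested, 235 rose (33.1%) and 77 fell (10.8%), against 22.9% and 15.1% of all 7214 tested genes. The median log2 change of the tested members was 0.18, and that of all tested genes was 0.0828. In start density 547 members were tested, 57 rose (10.4%) and 150 fell (27.4%), against 6.99% and 21.7% of all 6808 tested genes. The median start change was -0.24 in the members and -0.152 over all genes. Scaling shifted these medians: centring on chemoreceptor genes put the gene density median of all genes at -0.111, and 112 members then rose and 111 fell, so the excess of rises depends on the scaling. Densities below input were common among the calls, since 73 of the 235 members that rose in gene density and 13 of the 77 that fell had a mean below their input density, as did 10 of 57 and 9 of 150 at the starts.

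The falls at starts were most frequent in the narrowest pairs. At 300 to under 500 bp, 86 of 221 tested starts fell (38.9%, median log2 change -0.48), compared with 41 of 200 (20.5%, median -0.13) at 500 to under 750 bp and 23 of 126 (18.3%, median -0.13) at 750 to 1000 bp. Enriched starts were also more frequent there, with exactly 1 enriched start in 14.8% to 27.7% of the 318 narrowest pairs in the arrest libraries. The shares of tested members that rose in gene density were 33.9%, 33.5% and 31.1% in the same 3 bins, and differences between bins were not tested.

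Gene density of both partners could be tested in 223 pairs, in 264 only 1 partner was tested and in 493 neither. Both partners rose in 38 of the 223 pairs, both fell in 4 (1.79%), they were called in opposite directions in 5 (2.24%), 1 partner alone was called in 113 (50.7%) and neither in 63 (28.3%). Both partners rose in 37 of 325 tandem (11.4%), 22 of 125 convergent (17.6%) and 4 of 100 divergent pairs spaced over 1000 and up to 3000 bp, and opposite calls made up 2.77% of the tandem, 3.2% of the convergent and 8 of the 100 wider divergent pairs. The 42 divergent pairs called the same way became 12 when values were centred on chemoreceptor genes and 18 without the S2 arrest library. A difference between the partners' changes was tested directly in each pair and called in 109 (48.9%), where the same test called 28.9% of all 4036 neighbouring pairs. The shares were 28.6% of 325 tandem, 40.0% of 125 convergent and 41.0% of 100 divergent pairs spaced over 1000 and up to 3000 bp. The partners' changes had r = 0.22 over the 223 divergent pairs, and 0.15 to 0.27 when the left change came from one flow cell and the right change from another, so that no library served both. The same r of mean changes was 0.25 for tandem, 0.48 for convergent and 0.13 for wider divergent pairs.

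Start density of both partners could be tested in 136 pairs, in 275 only 1 start was tested and in 569 neither. Both starts rose in 2 pairs (1.47%), both fell in 4 (2.94%), they were called in opposite directions in 14 (10.3%), 1 start alone was called in 66 (48.5%) and neither in 50 (36.8%). The difference between partners was called in 52 pairs (38.2%), against 19.8% of all 3390 neighbouring pairs, 20.6% of 335 tandem, 20.9% of 91 convergent and 19.7% of 66 wider divergent pairs. Opposite calls made up 2.09% of tandem, 1.1% of convergent and 0 of 66 wider divergent pairs. Both starts fell in 4.48% of tandem, 5.49% of convergent and 7.58% of wider divergent pairs, and both rose in 2.09%, 2.2% and 0%. A single start was called in 36.7%, 41.8% and 45.5% of them. The start changes of partners had r = -0.18 over the 136 pairs that passed the density minimum and -0.21 to -0.11 between flow cells, but r = 0.08 over all 980 pairs (0.01 to 0.08 within flow cells), so the sign depends on the filter. Among pairs that passed, r was -0.38 over the 60 pairs under 500 bp, -0.07 over 50 pairs at 500 to under 750 bp and -0.06 over 26 wider pairs, and over all 318 pairs under 500 bp it was 0.02. Tandem and convergent starts that passed had r = 0.18 and 0.17, and 0.16 and 0.06 over all pairs of the class. Differences between classes of pairs were not tested, and at the same spacing starts of tandem and convergent neighbours lay farther apart than divergent ones.

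**Figure D3:**
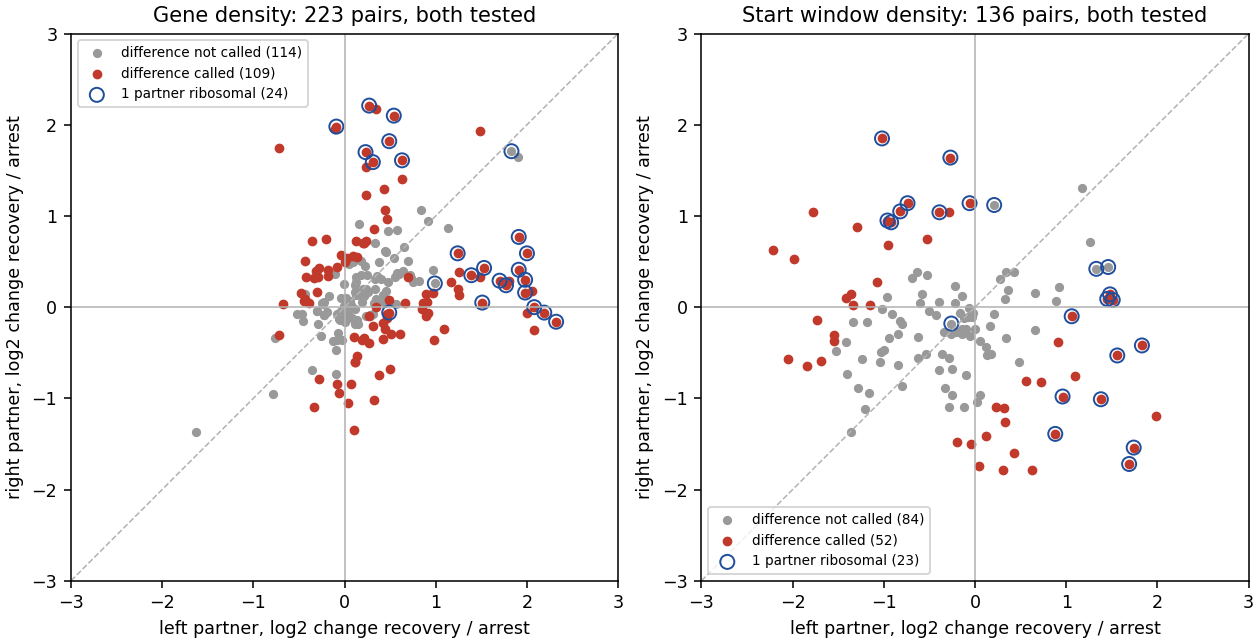
Log2 change from 12 hr arrest to recovery of the left partner (horizontal) and right partner (vertical) for divergent pairs with both partners tested, for gene density (223 pairs) and start density (136 pairs). Red points are pairs with a called partner difference (109 and 52), blue rings mark pairs with 1 ribosomal protein gene (24 and 23). The difference was called in 22 and 19 of the ringed pairs, and pab-1 with rpl-30 (1.83 and 1.71) is the ringed grey point near the dashed line of equal change in gene density.

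Cytoplasmic ribosomal protein genes, which encode the structural proteins of the ribosome, were frequent among pairs with a called difference. Of the 980 pairs, 29 had 1 ribosomal protein gene and 2 had a pair of them. All 29 ribosomal genes rose in gene density, by 0.49 to 2.47 with a median of 1.82, and in the whole list 80 of 80 tested genes rose. Of their 24 tested partners 11 rose and none fell, with a median change of 0.29. Of all tested genes 22.9% rose and 15.1% fell in gene density. At the starts 26 of the 29 ribosomal genes rose (median 1.14), whereas none of the 23 tested partners rose and 10 fell (median -0.42). Over all genes 6.99% of tested starts rose and 21.7% fell. In the whole ribosomal list 66 of 78 tested starts rose and 5 fell. The difference was called in 22 of 24 pairs for gene density and in 19 of 23 for start density, with the ribosomal gene above its partner in every called pair. Pairs were also split by whether they hold a ribosomal protein gene, a split added after seeing the data. Both gene densities rose in 25 of 197 pairs without such a gene and in 13 of 26 with one. Without such a gene the difference was called in 86 of 197 pairs (43.7%) for gene density and in 33 of 111 (29.7%) for start density. Opposite start calls were found in 4 of these 111 pairs (3.6%), and r of the partners' changes was 0.19 for genes and -0.25 for starts. The count of risen partners of ribosomal protein genes depended on the scaling, since only 2 rose in gene density when values were centred on chemoreceptor genes. Antibody and library mattered as well: 2 partners rose and 4 starts fell with 4H8 alone, 5 rose and 6 starts fell without the S2 arrest library, 6 rose without the S2 recovery library, and 7 rose without the first 4H8 recovery library.

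**Figure D4:**
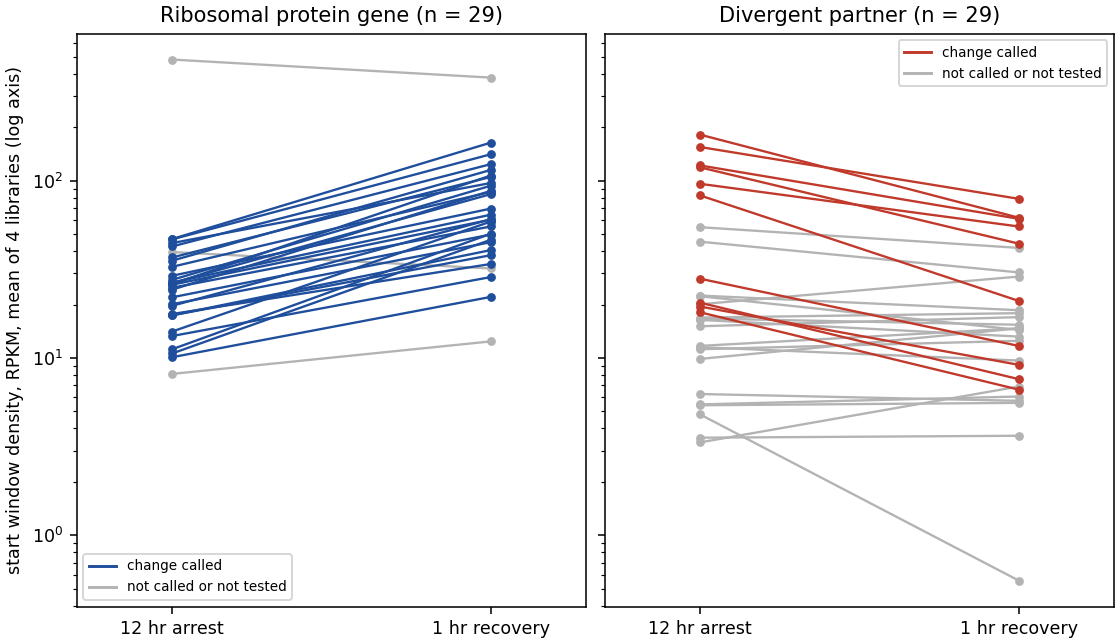
Mean start density of 4 libraries (RPKM, log axis) in 12 hr arrest and recovery for 29 ribosomal protein genes (left) and their divergent partners (right). Coloured lines are called changes: 26 ribosomal starts rise and 10 partner starts fall, and the grey ribosomal line near the top is rpl-12.

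The largest start difference was that of rpl-31, for a protein of the large ribosomal subunit, and W09C5.7 (sac-2 in RefSeq), which lie 322 bp apart on chromosome I (13652926 to 13653693 and 13654016 to 13658150). The rpl-31 start density was 17.6, 28.6, 33.4 and 17.8 RPKM in arrest (S2, the 2 4H8 libraries, 8WG16) and 103, 92.2, 83.6 and 71.8 RPKM in recovery. The W09C5.7 start density was 73.7, 116, 51.7 and 88.8 RPKM in arrest and 17.9, 25.6, 25.6 and 15.1 RPKM in recovery. The groups did not overlap at either start, and the start window with the higher density changed sides with every antibody. The rpl-31 start rose by 1.69 (SE 0.26, limma adjusted p = 1.17e-06), the W09C5.7 start had a log2 change of -1.72 (SE 0.27, adjusted p = 2e-06), and the gene density of W09C5.7 had one of 0.3 (SE 0.12, adjusted p = 0.085).

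The large-subunit gene rpl-4 and B0041.8, 343 bp apart on chromosome I (4645642 to 4646966 and 4647310 to 4648276), were called in the same directions. Start density of rpl-4 was 7.02, 19.6, 15.1 and 14.8 RPKM in arrest and 45.6, 55.6, 46.9 and 87.0 RPKM in recovery. Start density of B0041.8 was 145, 221, 158 and 201 RPKM in arrest and 48.9, 76.7, 87.8 and 34.0 RPKM in recovery. The rpl-4 start began below its input of 19.3 RPKM in 3 of 4 arrest libraries and the B0041.8 start began at least 4-fold above its input of 34.4 RPKM in all of them. The log2 changes were 1.74 (SE 0.27, limma adjusted p = 1.59e-06) and -1.54 (SE 0.25, adjusted p = 3.88e-06). Over the gene body rpl-4 rose from a mean of 62.5 to 286 RPKM, and B0041.8 stood at 20.7 and 20.9 RPKM.

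The remaining opposite starts formed a short list, named here after their values were seen. Of the 14 pairs with starts called in opposite directions, 10 had a ribosomal protein gene as the rising partner: rpl-31, rpl-4, rpl-17, rps-27, rps-0, rla-2, rps-29, rps-18, rpl-34 and rpl-30. The other risers were eft-3 (a translation elongation factor 1 alpha gene), nol-5 and fib-1 (nucleolar proteins that act in ribosomal RNA modification) and tsn-1 (a staphylococcal nuclease domain protein). Their falling partners have varied roles: rfc-4 is a clamp loader subunit of DNA replication, aps-3 an adaptor subunit of vesicle coats, zip-4 a bZIP transcription factor, snt-2 a synaptotagmin, Y57G11C.15 (sec-61.A in RefSeq) a subunit of the protein translocation channel, and mut-15 a factor of small RNA silencing. All 14 risers were higher and all 14 falling partners lower after feeding on each of the 4 flow cells. The same libraries gave the calls that chose these pairs. This agreement and the stronger starts counted below are therefore not independent support. The spacing was 322 to 759 bp, under 500 bp in 10 pairs. At such distances polymerase of 1 partner in the window of the other was not told apart. In arrest the falling partner had the stronger start in 12 of the 14 pairs, and in recovery in 5. The response difference between the partners ranged from 1.63 to 3.41 on the log2 scale. All 14 risers also rose in gene density, while of 12 falling partners tested over the gene 1 fell (zip-4) and 5 rose.

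**Figure D5:**
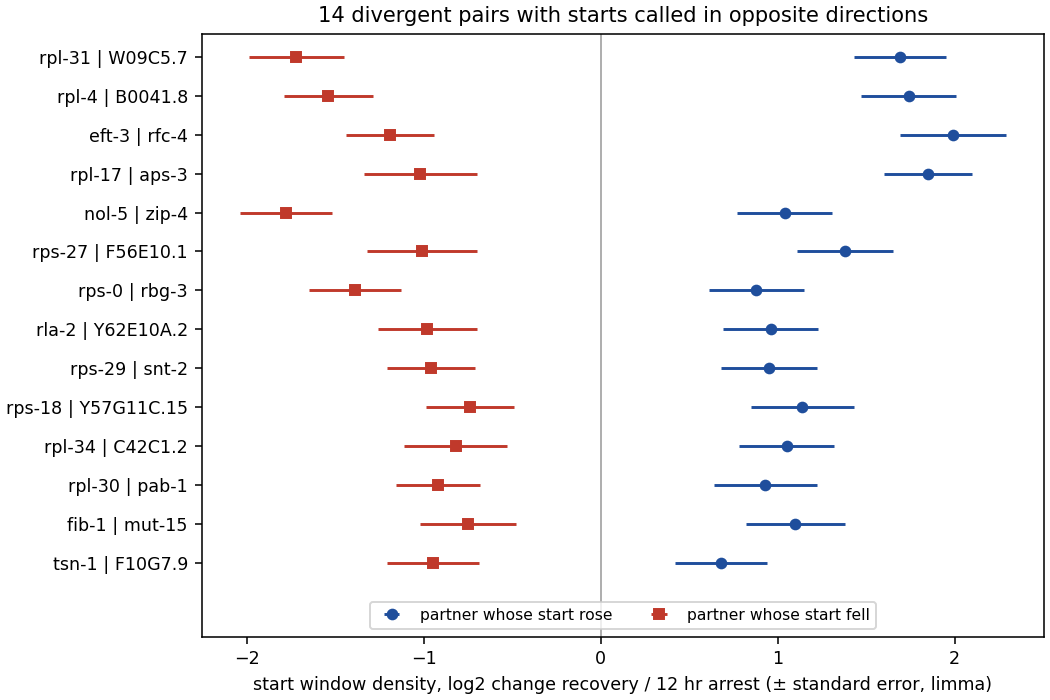
Log2 change in start density (recovery over 12 hr arrest, ± standard error from limma) for the 14 divergent pairs whose starts were called in opposite directions. Circles are the rising partners, squares the falling ones, and the distance between them runs from 3.41 (rpl-31 and W09C5.7) to 1.63 (tsn-1 and F10G7.9).

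For eft-3 and rfc-4, 491 bp apart on chromosome III (6969962 to 6971654 and 6972146 to 6973636), the eft-3 start held 45.5, 6.93, 33.5 and 23.0 RPKM in arrest and 91.7, 166, 109 and 80.8 RPKM in recovery. The rfc-4 start held 84.3, 129, 101 and 115 RPKM in arrest and 47.2, 46.7, 47.8 and 34.0 RPKM in recovery. Neither start overlapped between the states, although the eft-3 value of 6.93 RPKM in the first 4H8 arrest library was far below that of the second, 33.5 RPKM. The difference in response was 3.19 (SE 0.47, limma adjusted p = 0.000214, eft-3 above rfc-4). Gene density of eft-3 went from 141, 127, 114 and 68.6 RPKM to 627, 636, 445 and 235 RPKM, a rise of 2.0 (SE 0.17, limma adjusted p = 8.23e-05). The rfc-4 gene body, near its input of 11.2 RPKM throughout, had 13.7, 8.63, 12.3 and 10.3 RPKM in arrest and 10.3, 11.5, 8.7 and 11.7 RPKM in recovery.

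The nol-5 and zip-4 pair, 331 bp apart on chromosome I (3267095 to 3269120 and 3264256 to 3266763), was the 1 pair with opposite calls in both measures. The zip-4 start went from 132, 170, 98.1 and 193 RPKM to 38.7, 55.0, 33.8 and 30.0 RPKM and the nol-5 start from 14.1, 10.7, 15.1 and 8.88 RPKM to 34.2, 25.6, 27.3 and 34.0 RPKM. Over the gene zip-4 had 32.4, 34.2, 27.8 and 32.6 RPKM in arrest and 17.5, 21.3, 14.6 and 15.99 RPKM in recovery, and nol-5 had 29.6, 27.5, 21.6 and 21.4 RPKM in arrest and 130, 124, 77.9 and 63.1 RPKM in recovery. None of these 4 sets overlapped between states. The log2 changes of gene density were -0.72 (SE 0.12, limma adjusted p = 0.00261) for zip-4 and 1.74 (SE 0.18, adjusted p = 0.000179) for nol-5.

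The remaining pairs with opposite gene density calls had changes between -1.02 and 0.98. They were F56H11.6 (0.98) with elo-7 (-0.36), a fatty acid elongase gene, T08A11.2 (0.27) with R10E4.1 (-0.39), ZK863.4 (0.32) with srd-4 (-1.02), a predicted chemoreceptor gene, and the collagen gene col-8 (0.5) with rfl-1 (-0.68), whose product activates the ubiquitin-like protein NED-8. These pairs were also chosen after their values were seen.

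Among pairs in which both partners have public gene symbols, the 5 largest called differences in gene density joined a gene that rose with a partner that was not called or fell. They were rps-9 with lsm-1, nol-5 with zip-4, fib-1 with mut-15, rpl-17 with aps-3, and eft-3 with rfc-4. The gene density of rps-9, for a small-subunit protein, was 41.0, 32.2, 27.5 and 22.7 RPKM in arrest and 188, 217, 156 and 135 RPKM in recovery. That of lsm-1, 581 bp away, whose product acts in messenger RNA decay, was 10.0, 8.9, 11.5 and 15.8 RPKM in arrest and 12.2, 11.1, 6.68 and 9.42 RPKM in recovery. The rps-9 groups were far apart and the lsm-1 groups overlapped, and the difference in response was 2.48 (SE 0.2, limma adjusted p = 0.000114, rps-9 above lsm-1). The fib-1 gene had 61.1, 56.4, 70.3 and 36.4 RPKM in arrest and 305, 310, 262 and 151 RPKM in recovery, and its partner mut-15 had 23.2, 17.8, 25.0 and 29.6 RPKM and then 17.6, 17.7, 18.3 and 23.3 RPKM. The fib-1 response exceeded that of mut-15 by 2.33 (SE 0.14, limma adjusted p = 4.95e-05). The rpl-17 response exceeded that of aps-3 by 2.08 (SE 0.21, limma adjusted p = 0.000293).

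Pairs in which both gene densities rose included translation and histone genes. The 5 pairs ranked first were pab-1 with rpl-30, rps-14 with rpl-36, rpl-39 with rps-30, his-67 with his-68 and his-61 with his-62. The poly(A)-binding protein gene pab-1 (chromosome I, 10432805 to 10435866) had gene densities of 48.8, 47.2, 46.6 and 27.6 RPKM in arrest and 226, 224, 151 and 86.1 RPKM in recovery. Its partner rpl-30, 387 bp away (10436254 to 10436868), had 82.7, 63.4, 60.3 and 44.4 RPKM in arrest and 274, 257, 215 and 133 RPKM in recovery. Neither gene overlapped between the states, the log2 changes were 1.83 (SE 0.17, limma adjusted p = 0.000115) and 1.71 (SE 0.14, adjusted p = 7.47e-05), and the difference between them was -0.12 (SE 0.13, adjusted p = 0.518, rpl-30 minus pab-1). At the starts the same genes were called in opposite directions. The pab-1 start had 133, 196, 151 and 140 RPKM in arrest and 78.8, 88.4, 67.9 and 81.3 RPKM in recovery, with no overlap, and the rpl-30 start 23.4, 7.14, 7.54 and 32.6 RPKM and then 30.9, 42.2, 24.7 and 37.8 RPKM, with an overlap.

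Both pairs made of 2 ribosomal protein genes rose in both measures. For rps-14 and rpl-36, 644 bp apart on chromosome III (7178913 to 7179533 and 7180178 to 7180606), the gene changes were 1.9 (SE 0.15, limma adjusted p = 5.94e-05) and 1.65 (SE 0.14, adjusted p = 7.92e-05). Start density of rps-14 was 9.36, 17.9, 21.5 and 14.8 RPKM in arrest and 47.2, 50.01, 30.7 and 37.8 RPKM in recovery, and that of rpl-36 was 15.2, 19.6, 21.5 and 26.7 RPKM and then 68.4, 55.6, 57.1 and 52.9 RPKM. For rpl-39 and rps-30, 494 bp apart on chromosome V, the gene changes were 1.49 and 1.93 and the start changes 1.26 and 0.71. These were the 2 pairs with both starts called higher. The 4 pairs with both starts called lower were drr-2 with set-16, F25H2.5 with F25H2.6, mtx-1 with dnj-12 (-1.21 and -1.12) and C40H1.3 with ttr-5 (-1.16 and -0.94), all with at least 1 partner whose mean start density was above 15 RPKM in arrest.

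Histone genes gave 4 pairs with both partners in the family, all 304 to 327 bp apart, and their reads are uncertain because the copies are nearly identical. One pair, his-66 with his-65, was listed at 0 in every library, the input included. Gene density rose in both partners of his-67 and his-68 (1.13 and 0.87) and of his-61 and his-62 (0.84 and 1.06), and in his-31 (0.82) but not by the test in his-32 (0.29, limma adjusted p = 0.262). The his-61 start had 39.8, 58.9, 65.7 and 56.3 RPKM in arrest and 37.5, 53.3, 51.2 and 68.1 RPKM in recovery, and the his-62 start 41.0, 55.4, 65.7 and 110 RPKM and then 40.7, 74.5, 77.6 and 68.1 RPKM. The states overlapped at both starts, with log2 changes of -0.07 and -0.01 (limma adjusted p = 0.866 and 0.984). No start was called in the other tested histone pairs, where the his-67 start had the largest change (-0.62, limma adjusted p = 0.054).

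Only 4 pairs had both gene densities called lower, and in none did both partners have a public symbol. The largest were F18E3.7 (ddo-2 in RefSeq) and F25E5.8, 380 bp apart on chromosome V (7433382 to 7435013 and 7435394 to 7436943). F18E3.7 had 52.7, 44.5, 53.9 and 49.4 RPKM in arrest and 9.38, 12.5, 10.98 and 19.5 RPKM in recovery, and F25E5.8 had 31.7, 30.2, 30.9 and 44.4 RPKM and then 9.46, 10.9, 9.36 and 10.7 RPKM. Neither overlapped between states, and the recovery means of 13.1 and 10.1 RPKM were below the inputs of 15.3 and 11.4 RPKM. The log2 changes were -1.63 (SE 0.15, limma adjusted p = 9.67e-05) and -1.37 (SE 0.1, adjusted p = 5.2e-05). The other pairs were T06E8.2 with F57A8.1 (-0.78 and -0.95), B0432.10 with B0432.4 (-0.76 and -0.34; misc-1 in RefSeq, a mitochondrial carrier) and the small GTPase gene rab-1 with C39F7.5 (-0.72 and -0.31).

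A start that fell was often next to a gene body that did not. Of the 416 members tested in both measures, 109 had a start that fell, and of these the gene density fell in 29, was not called in 63 and rose in 17 (15.6%). Over all 4604 genes tested in both, 1093 had such a start and gene density rose in 6.86%, fell in 41.9% and was not called in 51.2% of them. Of 52 members whose start rose, 50 also rose over the gene and none fell. Over all genes 352 starts rose, and of these 299 also rose over the gene and 1 fell. The difference between the members and all genes was not tested.

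Other groups of genes are given by the list of their members with a partner outside the list, to be read against the 22.9% of all tested genes that rose in gene density and against the whole list. Of 10 tested translation factor genes in 12 pairs 9 rose in gene density (median 0.63), as did 3 of 9 tested partners (median -0.06). In the whole list 26 of 31 rose. Of their tested partner starts 5 of 8 fell (median -1.27), where 21.7% of all tested starts fell. Partner starts also fell in 5 of 8 splicing (median -0.9) and 3 of 4 ribosome biogenesis cases. Fewer fell in chaperone (2 of 5), vesicle traffic (2 of 8), proteasome (1 of 7) and mitochondrial ribosomal protein pairs (1 of 9). For ribosome biogenesis genes 5 of 7 rose over the gene (median 0.62), with 1 of 8 partners called higher and 1 lower, and for the 8 tested chaperone genes 7 rose (median 0.78) with 5 of 7 partners (median 0.36). The whole lists had 8 of 14 and 18 of 36 higher. Aminoacyl-tRNA synthetase genes rose in 4 of 5 cases (median 0.44) and collagen genes in 10 of 11 (median 0.5), where the whole lists had 13 of 24 and 68 of 123 higher. Splicing genes rose in 5 of 11 and fell in 1 (median 0.28), and 10 of 33 rose in the whole list. Differences between the divergent members and the whole lists were not tested.

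In proteasome pairs the calls lay mostly on the partner's side. Of 13 proteasome subunit genes 1 rose in gene density (median 0.05) and of 11 tested partners 6 rose (median 0.54), and in all 6 pairs with a called difference the partner was above the proteasome gene; in the whole list 2 of 32 rose. Vesicle traffic genes were similar, with 3 of 13 higher and 1 lower (median -0.09), 6 of 11 partners higher and 1 lower (median 0.42), and the partner above in all 6 called differences, and 9 of 67 rose in the whole list. Of the mitochondrial ribosomal protein genes 2 of 8 rose, near the share of all genes, and 1 fell (median 0.14), with 10 of 52 higher in the whole list, and 4 of 7 differences were called. Respiratory chain genes had 1 call, a fall, among 6 (median -0.03), and transcription machinery genes 1 rise and 1 fall among 3, with 6 of 30 and 6 of 40 higher in the whole lists. Chemoreceptor genes stood on 1 side of 82 pairs and on both sides of 23, and none of those 46 members reached the minimum density (means of 1.65 to 9.96 RPKM over the gene).

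Other pairs within 1 family gave no test. The 2 neighbouring pairs of small heat shock genes (hsp-16.1 with hsp-16.48, hsp-16.49 with hsp-16.11), which are near-identical copies, were listed at 0 everywhere, the input included, and the collagen genes col-117 and col-3 had about 2 RPKM over the gene. At the edges of the spacing rule, the closest pair inside was rpt-2, a proteasome ATPase gene, with aps-1 at 300 bp. Its rpt-2 start went from 41.0, 53.6, 23.7 and 59.2 RPKM to 17.9, 13.3, 7.68 and 7.56 RPKM without overlap. The next pair, nspb-8 and nspb-9 at 301 bp, was untested. Just outside, F38A5.2 and dnj-11 at 299 bp had gene density changes of 0.01 and 1.19 and a mean F38A5.2 start density of 133 RPKM in arrest and 44.6 RPKM in recovery. The widest pairs inside were R07C3.14 with R07C3.5 (999 bp, untested) and F22G12.6 with F22G12.5 (998 bp, gene changes of -0.29 and 0.33), and the nearest beyond was F01G4.3 with F01G4.4 at 1003 bp.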

How the data were processed

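Genomic DNA from 14 samples was sequenced (10 immunoprecipitations and 4 inputs). The authors deposited 1 table of 9 immunoprecipitation columns and 1 input column in RPKM (reads scaled to library size and feature length, over gene models and over 200 bp start windows) and tables of fold enrichment as a ratio to input, with low inputs raised to the median, per the labels' design text. Gene coordinates are those of WS190, per the deposited coordinate table, counted from 1. The aligner is not given in the sources used here. One gene had densities and no coordinates.

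Values were analysed as log2(RPKM + 5) for genes with a mean of at least 10 RPKM over 8 libraries (limma 3.58.1, R 4.3.3, eBayes with trend, state and antibody as terms, all 4 libraries of each state). The partner difference was fitted to right minus left values over all neighbouring pairs. Other values used Python 3.11.15, pandas 2.3.3, numpy 2.4.6, scipy 1.17.1 and matplotlib 3.10.9. The procedure was tested on simulated data. For a log2 change of 1 in gene density it recovered 80% of changed genes and 83% of changed pair differences. At starts it recovered 28% and 14%, so many start changes of this size would be missed. False calls made up 2.54% to 6.25% of all calls. Depth was estimated from the smallest step of the densities: within 0.1 of a read, 90.4% to 91.9% of start values were whole reads. Precision from counting alone is therefore low at starts, and no interval is given because the values used here are not counts.

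The labels' flow cells put 1 arrest and 1 recovery library of the same antibody together, which pairs the numbered 4H8 libraries: same-number deviations correlated at 0.347 (gene) and 0.236 (start). Nothing in the labels says that the singletons came from separate cultures, so p-values measure the spread between libraries. The members and gene lists were chosen with earlier results of these data known, and lists match the deposited or RefSeq symbol (1925 of 1960 members matched RefSeq locus tags). Pairs were named by rank: the 5 with both partners higher, up to 5 with both lower and 5 with the largest called difference in gene density, those with both symbols first, the 4 highest at both starts in arrest, the spacing extremes and all pairs within one list. Alternatives covered pseudocounts, minimum density, scaling, antibody, the flow cell block, spacing, enrichment threshold and leaving out each library. Promoter sequences were not used here.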

Additional observations from a re-analysis of the deposited data

Results flagged for a closer look

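The share of divergent pairs with both starts at least 2-fold enriched was 1.84% in the 8WG16 library of 12 hr arrest, while the other 3 arrest libraries lay between 0.51% and 0.714%, a gap wide enough to stand apart by Dixon's ratio for 4 samples. This library had 1689000 reads, the fewest of the arrest libraries, and the part of depth in the value was not tested. It was also the only 12 hr arrest library with 8WG16, so antibody and library cannot be told apart. The partner correlation of start density was 0.377 in the S2 library of 12 hr arrest, above the other arrest libraries (0.31 to 0.32), and stood apart by the same ratio. That library too was the only 12 hr arrest library of its antibody. Chance flags about 1 in 20 groups.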

How the results depend on the processing

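With the flow cell as a replicate block in place of antibody, which the labels' pairing allows, 267 members rose and 83 fell in gene density, 60 and 154 at starts, 47 and 6 pairs were called the same way, and 106 and 52 differences were called; the two-sided p of the share of pairs with both starts enriched was 0.625 (difference 0.153) and that of start r was 0.375 (difference -0.0365), so the block changed no call of these. A pseudocount of 1 gave 34 start differences. With no minimum density 24 starts rose, 63 fell, 0 pairs were called the same way at starts, 6 start differences were called and 4 partner starts of ribosomal genes fell. A minimum of 20 RPKM gave 132 higher and 40 lower members, 15 pairs the same way and 37 differences in gene density, 23 start differences, and 7 higher and 6 lower partners of ribosomal genes (gene and start). Centring on chemoreceptor genes gave 112 higher and 111 lower members, 12 pairs the same way and 2 higher partners. With 4H8 alone the counts were 99 higher, 24 lower, 9 the same way and 49 differences in gene density, 75 fallen starts, 0 pairs the same way and 12 differences at starts, and 2 higher and 4 lower partners. S2 and 4H8 together, chosen after seeing the data, gave 27 pairs the same way in gene density. Among pairs 500 to 1000 bp apart 143 rose, 45 fell, 22 pairs went the same way and 68 differed in gene density, and 37 rose, 64 fell, 2 went the same way and 24 differed at starts, from fewer pairs.

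The small difference in the share with both starts enriched changed sign at 1.5-fold (-0.357 percentage points, p = 0.914) and 3-fold (-0.0255, p = 1, exact two-sided permutation tests), and start r changed sign among pairs with a start of at least 10 RPKM (0.0782, p = 0.0571, exact permutation test). The gene density change of aps-3 was 0.1 with 4H8 alone. The causes were not tested. Leaving out each library in turn gave 166 to 211 higher and 47 to 66 lower members, 18 to 37 pairs the same way and 82 to 93 differences in gene density, and 48 to 60, 120 to 147, 4 to 7 and 31 to 56 at starts. Partners of ribosomal genes ranged from 5 to 13 higher over the gene and 6 to 10 lower at the start, ribosomal starts from 23 to 26 higher, the share difference from -0.0085 to 0.468 and the r difference from -0.0585 to -0.0132. Pairs called the same way in gene density numbered 42 with all libraries and fell to 18 and 19 without S2 arrest and S2 recovery (with 47 and 50 lower members), 23 and 25 without the first 4H8 arrest and recovery libraries, and 26 and 27 without 8WG16 arrest and recovery. Without the first 4H8 arrest library 31 start differences were called, and without the first 4H8 recovery library the share difference was -0.0085. Without single libraries the uncalled gene density changes of aps-3 (-0.21 to 0.04) and rfc-4 (-0.13 to 0.02) changed sign. Of the other named values 1114 kept direction and side of the threshold, 120 lost the call and 3 gained one. Depth limits the start results: the median start window over all genes held 2 to 8 reads.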
